A study of Mus musculus with 7 samples.

Results

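Smooth muscle and myofibroblasts draw together through a shared set of contractile proteins, and 10 genes for these proteins were followed in mouse spleen: Acta2, Tagln, Myh11, Cnn1, Actg2, Des, Myl9, Tpm2, Lmod1 and Mylk. They were taken by symbol from a table of 22173 genes, and each symbol matched 1 row. The table held RNA sequencing values of 7 spleen libraries in 2 groups. The PBS group (3 libraries) received phosphate-buffered saline, and the sHA-X group (4 libraries) received 4 injections of a biomaterial that the labels name only sHA-X, given to remodel the spleen. Hepatocytes were then injected into the spleens of both groups, and RNA was taken 30 days later. Strain, sex and age of the mice and the source of the hepatocytes are not given in the sources used here. Whether every library is a different animal is not stated, and the p-values below cover the spread among libraries, which may be technical. The study asked whether the remodelled spleen could hold transplanted hepatocytes, and the comparison here asks what the contractile genes did in that remodelled tissue.

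In a contractile cell, smooth muscle actin and myosin filaments slide past each other when myosin light chain kinase phosphorylates the regulatory light chain of myosin. Actin-binding proteins such as calponin, transgelin, tropomyosin and leiomodin stabilise or tune the thin filament, and desmin filaments tie the machinery to dense bodies. Most of these genes are driven by serum response factor (SRF), which binds a DNA motif called the CArG box and works with myocardin or the myocardin-related factors, and TGF-beta signalling raises many of them when fibroblasts become myofibroblasts. In the spleen, contractile cells lie in the capsule, the trabeculae and the walls of arteries, and reticular fibroblasts and pericytes also carry some of the same proteins. Platelets and megakaryocytes use Myl9 as well.

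Values are FPKM, reads scaled to transcript length and library size. The whole reads behind them could be recovered, and libraries held 29543963 to 37141978 reads. The lowest member value rested on 178 reads (Lmod1, PBS replicate 2) and the highest on 5724 (Tagln, sHA-X replicate 4). For the members with few reads, counting error is part of the spread between libraries. Spleen marker genes were present throughout, with sums of 9657 to 16815 FPKM in PBS and 7408 to 10495 FPKM in sHA-X. In the limma test described below, 4 of the 10 fell and 2 rose (5.03% and 9.3% over all genes). Their median log2 difference was -0.35. PBS replicate 2 stood apart by pancreatic acinar markers, with a summed level of 1269 FPKM against 16.7 to 35.8 in the other libraries. The library sHA-X replicate 2 stood apart by skeletal muscle markers, summing to 291.3 FPKM against 13.3 to 21.7 elsewhere. The sum of hepatocyte markers was 798 FPKM in sHA-X replicate 3, 814 FPKM in sHA-X replicate 4 and 3.10 to 25.0 FPKM in the other 5 libraries. The members were therefore also fitted without PBS replicate 2 and sHA-X replicate 2, called both second libraries below.

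CArG boxes are shown here because SRF is the factor most closely tied to this gene set. RefSeq promoter windows (GRCm38.p6, 250 bases before to 50 after the start) were matched for 7 of the 10 genes, and Tagln, Myh11 and Actg2 were not matched. The 10-base box, which reads the same on both strands, was searched exactly and with 1 other base allowed. It occurred in the windows of Acta2 and Myl9 but not in those of Cnn1, Des, Tpm2, Lmod1 and Mylk. The Mylk window, 34784700 to 34784999, lies inside the gene span given below (34745199 to 35002436), so the region before the first base of that span was not searched. The box is in capitals with 10 bases on each side, and positions count from the start site of the window. This start need not be the end of the gene span given below. The Acta2 window covers 34255324 to 34255623, and both of its boxes lie inside the gene span of 34240336 to 34255585.
Acta2 at -84, chr19:34255438-34255467, minus strand: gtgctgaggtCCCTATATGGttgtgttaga
Acta2 at -34, chr19:34255388-34255417, minus strand: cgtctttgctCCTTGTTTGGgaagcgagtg
Myl9 at -161, chr2:156775293-156775322, plus strand: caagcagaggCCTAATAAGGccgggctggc
Myl9 at -99, chr2:156775355-156775384, plus strand: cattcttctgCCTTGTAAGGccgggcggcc
Only the Myl9 box at -161 was exact. Over all 32851 windows of the same length, 1.63% held an exact box, 9.98% a box with up to 1 other base and 0.822% at least 2 such boxes. The matches describe letters in these windows and show no binding. Between the groups, the log2 difference was positive for Acta2 and negative for Myl9, as their values below show, and only that of Myl9 passed the test.

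Of the 10 contractile genes, 0 rose and 1, Myl9, fell in the sHA-X spleens at an adjusted p under 0.05 (limma on log2(FPKM + 1), Benjamini-Hochberg adjustment over the 11920 genes tested). Among all genes tested, 14.3% were called, 9.3% higher and 5.03% lower, so the members' count is near the background. Of all calls (1108 higher, 600 lower), 64.9% were higher, against 75.0% after scaling to TPM, 53.3% with upper quartile scaling and 54.3% with median ratio scaling, and under each of these Myl9 was again the 1 member called. All 10 members passed the filter of a mean of 1 FPKM, and 9 did not pass the test. At an unadjusted p under 0.05 there were 2 members higher (Acta2 and Tagln; 18.3% of all genes) and 1 lower (Myl9; 11.5%). The members' median log2 difference was 0.14 with 7 positive and 3 negative, against a median of 0.03 over all genes. Without PBS replicate 2 and sHA-X replicate 2 that median was -0.04, with 4 positive and 6 negative, and Myl9 was again the only call. In bulk tissue, fewer cells of a type and less RNA per cell cannot be told apart.

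**Figure D1:**
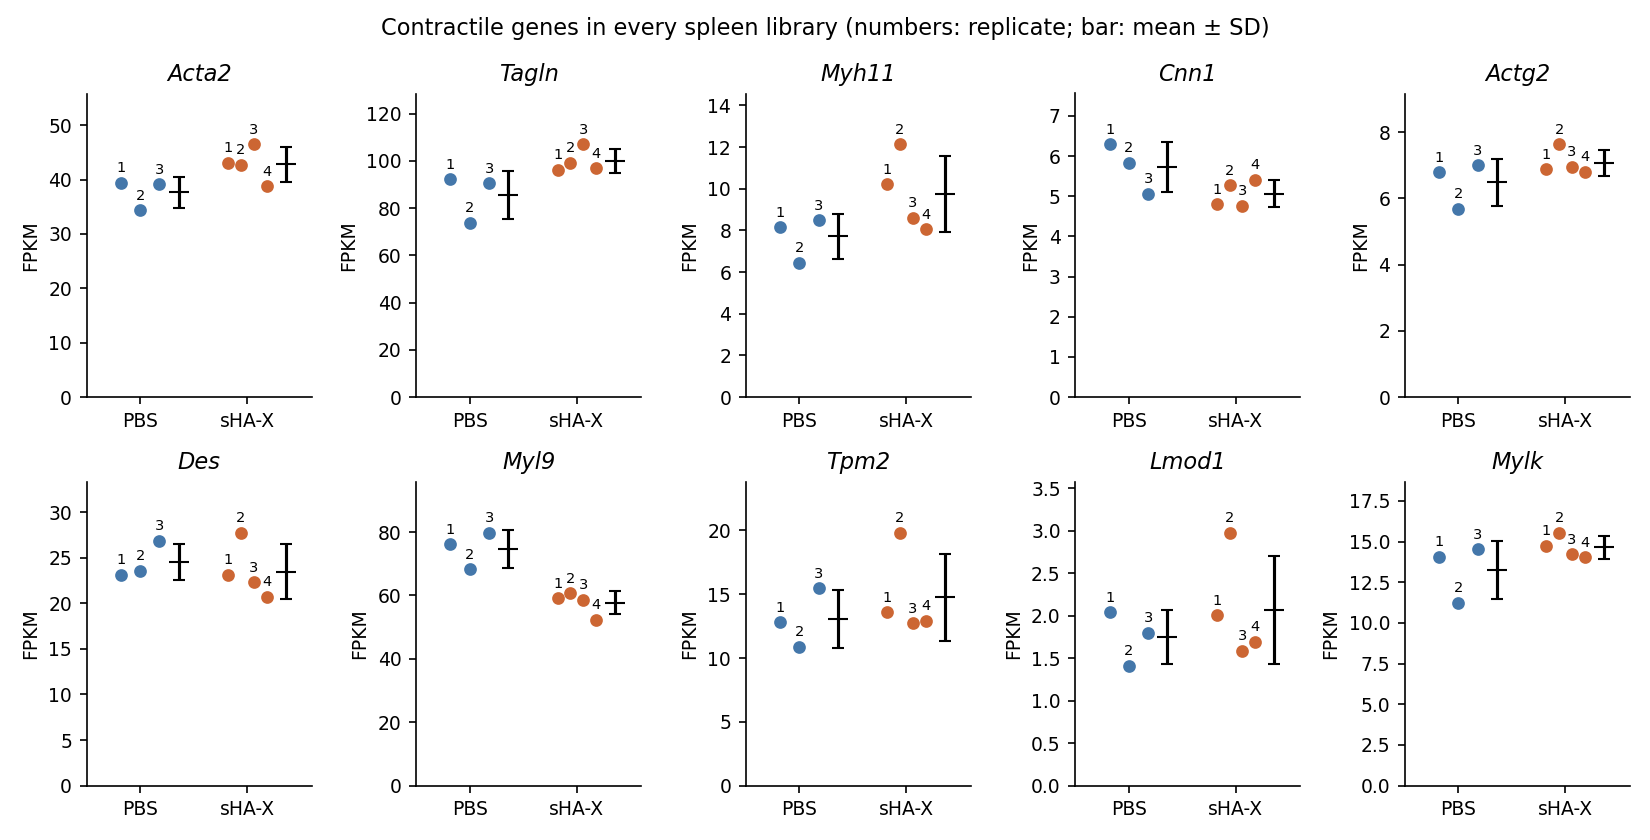
FPKM of the 10 contractile genes in each library (y axis, starting at 0), PBS in blue and sHA-X in orange, with replicate numbers; bars give the mean and SD of each group. Myl9 is lower in all 4 sHA-X libraries (52.3 to 60.7) than in the 3 PBS libraries (68.2 to 79.8), and only Tagln separates the other way.

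Actins form the thin filament. Acta2, smooth muscle alpha-actin and the usual marker of myofibroblasts (chromosome 19, 34240336 to 34255585, minus strand), stood at 39.4, 34.4 and 39.2 FPKM in PBS replicates 1 to 3. In sHA-X replicates 1 to 4 it stood at 43.1, 42.7, 46.5 and 38.8 FPKM. Only sHA-X replicate 4 fell within the PBS range, and the other 3 lay above it. The group means were 37.7 ± 2.84 (SD, n = 3) and 42.8 ± 3.17 (SD, n = 4), a log2 difference of 0.18 with a 95% interval of 0.0022 to 0.36, which did not pass after adjustment (limma adjusted p = 0.163). Without both second libraries the difference was 0.12, and its adjusted p over all alternatives ran from 0.102 to 0.473.

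Actg2, the gamma-actin of visceral smooth muscle, was far less abundant (chromosome 6, 83512909 to 83536251, minus strand). It measured 6.78, 5.69 and 7.0 FPKM in the PBS libraries and 6.88, 7.64, 6.96 and 6.81 FPKM in the sHA-X libraries. PBS replicate 2 was the low sample, and sHA-X replicate 2 the high one; the other 5 lay close together. The log2 difference of 0.11 (95% interval -0.07 to 0.30, limma adjusted p = 0.405) went to -0.0013 without these 2 libraries.

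Among the proteins that bind thin filaments, Tagln (transgelin, chromosome 9, 45929628 to 45936058, minus strand) was the most abundant member. Its levels were 92.2, 73.9 and 90.6 FPKM in PBS against 96.2, 99.2, 107 and 96.8 FPKM in sHA-X. All 4 sHA-X libraries lay above all 3 PBS libraries, as did 17.2% of all genes tested; 28.8% separated in either direction, against 2 of the 10 members. The log2 difference was 0.23 (95% interval 0.03 to 0.42) and did not pass after adjustment (limma adjusted p = 0.121). PBS replicate 2 was the lowest library by a wide margin, and without it the difference was 0.12. Exons of Pcsk7 and Gm48529 on the other strand cover 1349 bases of Tagln exons, and no label or header seen here says whether counting used the strand. Exons on the other strand also cover 772 bases of Mylk exons and 220 bases of Des exons.

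Cnn1, calponin, which restrains the actomyosin motor (chromosome 9, 22099221 to 22109221, plus strand), ran the other way. It stood at 6.30, 5.84 and 5.06 FPKM in PBS and at 4.802, 5.27, 4.77 and 5.42 FPKM in sHA-X. The 2 highest libraries were PBS replicates 1 and 2, while PBS replicate 3 lay inside the sHA-X range. The log2 difference was -0.15 (95% interval -0.34 to 0.04, limma adjusted p = 0.283), and -0.09 without PBS replicate 1.

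Tpm2, the beta-tropomyosin that lies along the actin groove (chromosome 4, 43513726 to 43523583, minus strand), was decided by 1 library. PBS values were 12.8, 10.9 and 15.5 FPKM, and sHA-X values were 13.6, 19.8, 12.7 and 12.9 FPKM. Apart from sHA-X replicate 2, every sHA-X library lay within the PBS range. The log2 difference of 0.16 (95% interval -0.25 to 0.56, limma adjusted p = 0.603) was -0.10 without both second libraries and 0.02 without sHA-X replicate 2 alone.

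Lmod1, leiomodin, which nucleates smooth muscle actin filaments, was the least abundant member (chromosome 1, 135324813 to 135368065, plus strand). It was measured at 2.04, 1.41 and 1.80 FPKM in PBS and at 2.002, 2.98, 1.59 and 1.69 FPKM in sHA-X. Again sHA-X replicate 2 was highest and PBS replicate 2 lowest, and the remaining libraries overlapped. The log2 difference of 0.14 (95% interval -0.22 to 0.50, limma adjusted p = 0.603) became -0.08 without both.

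For the thick filament, Myh11, the smooth muscle myosin heavy chain and the most specific marker of mature smooth muscle (chromosome 16, 14194527 to 14292188, minus strand), had PBS values of 8.17, 6.46 and 8.501 FPKM. Its sHA-X values were 10.2, 12.1, 8.61 and 8.05 FPKM. The sHA-X replicates 1 and 2 stood clear of the PBS group, whereas replicate 3 was barely above it and replicate 4 lay within it. Myh11 had the widest difference among the members on the positive side, 0.30 on the log2 scale (95% interval -0.03 to 0.62, limma adjusted p = 0.205), and it shrank to 0.09 without both second libraries.

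Myl9, the regulatory light chain whose phosphorylation starts contraction (chromosome 2, 156775408 to 156781657, plus strand), was the member that fell. Its PBS values were 76.2, 68.2 and 79.8 FPKM. In sHA-X they were 59.1, 60.7, 58.7 and 52.3 FPKM. The groups did not overlap (11.5% of all genes separated in this direction), and PBS replicate 2, the lowest PBS library, was still above sHA-X replicate 2, the highest of its group. Means were 74.7 ± 5.93 (SD, n = 3) and 57.7 ± 3.72 (SD, n = 4), a 1.29-fold lower level. The log2 difference was -0.37 (SE 0.0759, 95% interval -0.54 to -0.19, limma adjusted p = 0.0165). Without PBS replicate 1 it was -0.35 and no longer passed (limma adjusted p = 0.0738). Without both second libraries it was -0.45, a widening that follows from leaving out its lowest PBS and highest sHA-X values. Over all alternatives the adjusted p ran from 0.00947 to 0.128.

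Mylk encodes the kinase that phosphorylates this light chain (chromosome 16, 34745199 to 35002436, plus strand). It gave 14.1, 11.2 and 14.5 FPKM in PBS against 14.7, 15.6, 14.2 and 14.0 FPKM in sHA-X. PBS replicate 2 was the only library away from the rest. The log2 difference was 0.14 (95% interval -0.07 to 0.34, limma adjusted p = 0.345), and 0.0031 without both second libraries.

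Des, desmin, the intermediate filament of muscle cells that is also found in pericytes and reticular fibroblasts (chromosome 1, 75360292 to 75368579, plus strand), gave 23.2, 23.6 and 26.8 FPKM in PBS. The sHA-X libraries gave 23.1, 27.7, 22.3 and 20.7 FPKM. Both the highest and the lowest library belonged to the sHA-X group. The log2 difference was -0.07 (95% interval -0.29 to 0.16, limma adjusted p = 0.720). It was -0.17 without both second libraries, -0.15 without sHA-X replicate 2, -0.10 without PBS replicate 1, -0.01 without sHA-X replicate 4 and -0.0014 without PBS replicate 3, and passed in none of these.

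**Figure D2:**
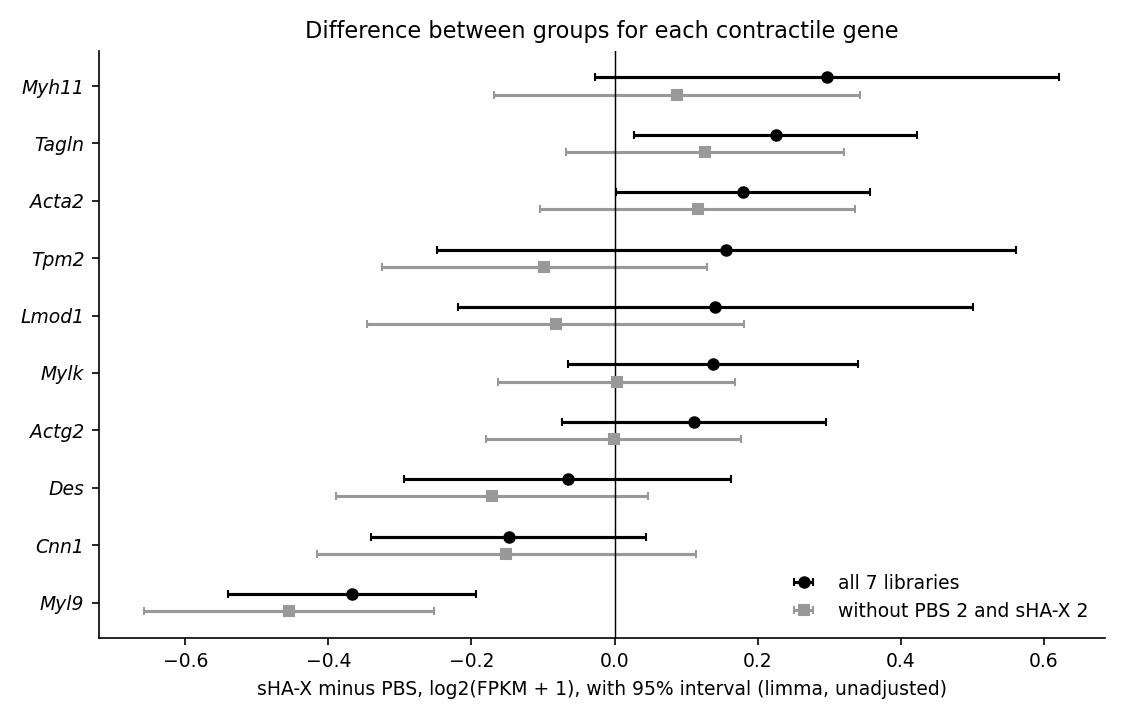
Difference in log2(FPKM + 1), sHA-X minus PBS, for each contractile gene with its 95% interval from limma (x axis), with all 7 libraries (black circles) and without PBS replicate 2 and sHA-X replicate 2 (grey squares). The Myl9 interval (-0.54 to -0.19) lies below 0 in both fits, and all 10 points lie lower when the second libraries are left out. PBS replicate 2 was the lowest PBS library for 8 members, and sHA-X replicate 2 the highest sHA-X library for 7. Leaving out such values lowers the difference by arithmetic.

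Since FPKM is scaled to length, levels can be ordered within a group, given the gene lengths behind the deposited values. The lengths implied by these values were 2845 bases for Acta2, 1630 for Cnn1 and 8525 for Mylk. All exons of these genes in GENCODE cover 2196, 2736 and 11263 bases, so the order of genes with close levels depends on the lengths used. In PBS the order of mean FPKM was Tagln (85.6), Myl9 (74.7), Acta2 (37.7), Des (24.5), Mylk (13.3), Tpm2 (13.0), Myh11 (7.71), Actg2 (6.49), Cnn1 (5.73) and Lmod1 (1.75). The library ranges of Tagln and Myl9, Mylk and Tpm2, Myh11 and Actg2, and Actg2 and Cnn1 overlapped, although Tagln was above Myl9, and Myh11 above Actg2, in each of the 3 libraries. Mylk was above Tpm2, and Actg2 above Cnn1, in 2 of 3. In sHA-X the order of mean FPKM was Tagln (99.8), Myl9 (57.7), Acta2 (42.8), Des (23.5), Tpm2 (14.8), Mylk (14.6), Myh11 (9.75), Actg2 (7.07), Cnn1 (5.06) and Lmod1 (2.06). Only Tpm2 and Mylk changed places in the means, and theirs were the only overlapping ranges between neighbours. Tpm2 was above Mylk only in sHA-X replicate 2 (19.8 against 15.6 FPKM). In every other sHA-X library Mylk was the higher. Tagln and Myl9, whose ranges overlapped in PBS, were apart in sHA-X.

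The same 2 libraries held most of the extremes. PBS replicate 2 was the lowest of all 7 libraries for 7 members (Acta2, Tagln, Myh11, Actg2, Tpm2, Lmod1 and Mylk). The sHA-X replicate 2 was the highest of all 7 for 6 (Myh11, Actg2, Des, Tpm2, Lmod1 and Mylk). Summed FPKM over the members was 281, 242 and 289 in PBS against 274, 294, 284 and 257 in sHA-X, so the groups overlapped in the sum. Acta2 and Tagln instead peaked in sHA-X replicate 3, and Cnn1 and Myl9 in PBS libraries.

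Other tissues were measured in the same 2 libraries. Pancreatic acinar markers, 14 of 14 highest in PBS replicate 2, have no contractile members. In sHA-X replicate 2, 23 of 25 skeletal muscle markers, 10 of 12 mesothelial markers and 9 of 10 adipocyte markers were at their highest. Acta1, skeletal muscle actin, was at 39.0 FPKM there against 0.019 to 0.594 elsewhere, and Ckm, muscle creatine kinase, at 31.9 against 0 to 0.0884. Mesothelial markers summed to 69.0 FPKM in that library against 18.5 to 36.5 in the others, and adipocyte markers to 110 against 14.5 to 45.9. Desmin and beta-tropomyosin are also made in skeletal muscle. The part of these tissues in the levels of Des, Tpm2 and Lmod1 was not tested. Cardiac actin Actc1 was at most 0.0857 FPKM and the cardiac myosin Myh6 at most 0.00493 in any library.

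**Figure D3:**
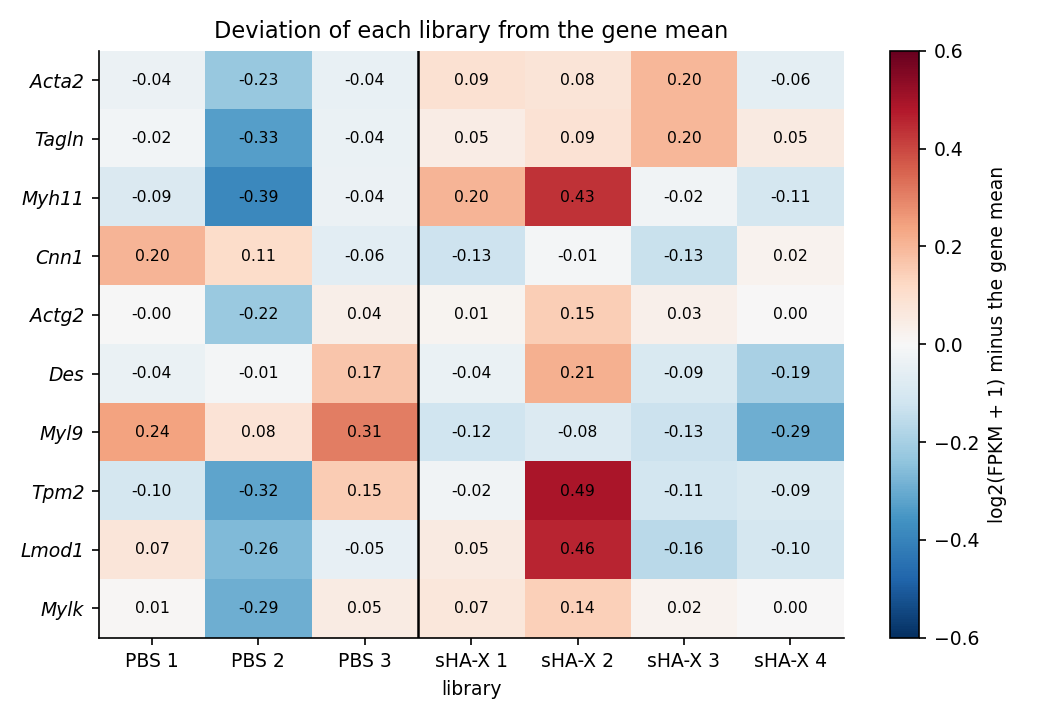
Deviation of log2(FPKM + 1) from the gene's mean over the 7 libraries, for each contractile gene (rows) and library (columns); red is above and blue below the mean. PBS replicate 2 is blue for 8 members, and sHA-X replicate 2 is the reddest column, with Tpm2 at 0.49 and Lmod1 at 0.46, while only Myl9 and Tagln split by group.

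Ratios within a library remove any shift common to the genes compared, and the following were chosen after the values had been seen, so they carry no test. Tagln over Acta2 was 2.34, 2.15 and 2.31 in PBS against 2.23, 2.32, 2.30 and 2.496 in sHA-X. The groups overlapped. Actg2 over Acta2 overlapped too, at 0.165 to 0.179 in PBS against 0.1496 to 0.179 in sHA-X. By contrast, Myl9 over Acta2 was 1.93, 1.98 and 2.04 in PBS against 1.37, 1.42, 1.26 and 1.35 in sHA-X, with no overlap and group means of 1.98 ± 0.0531 (SD, n = 3) and 1.35 ± 0.0664 (SD, n = 4). The light chain was lower relative to actin in each of the 4 sHA-X libraries.

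**Figure D4:**
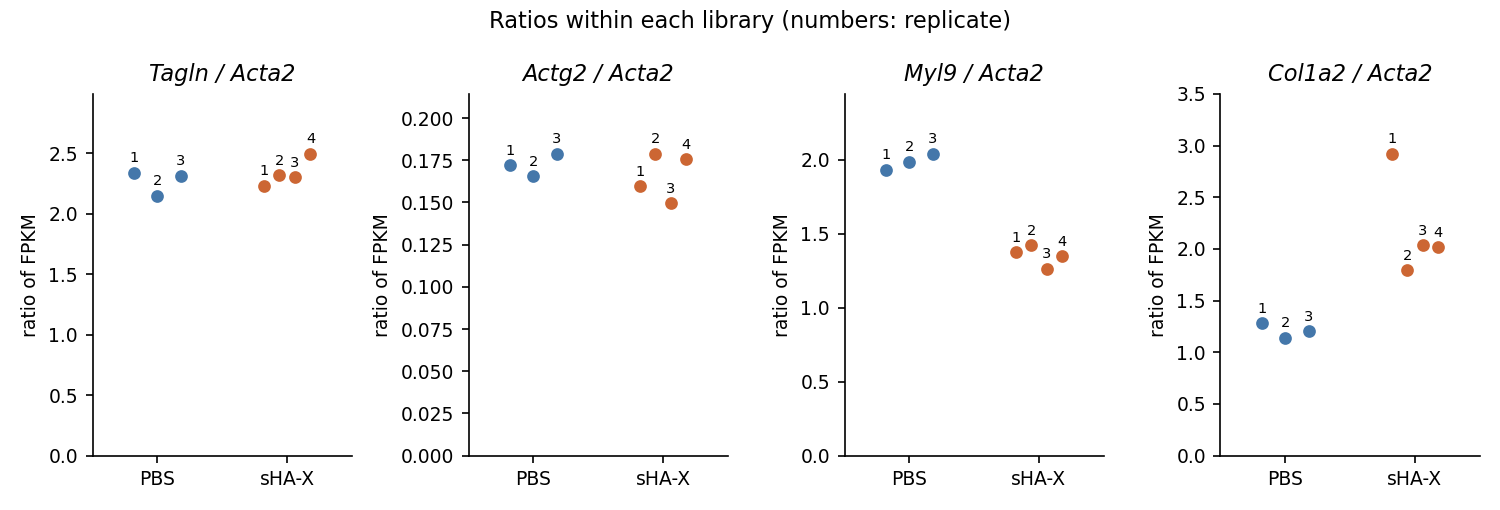
Ratios of FPKM within each library (y axes, starting at 0), PBS in blue and sHA-X in orange, with replicate numbers. Tagln/Acta2 and Actg2/Acta2 overlap between groups, Myl9/Acta2 is lower in every sHA-X library (1.26 to 1.42 against 1.93 to 2.04), and Col1a2/Acta2 is higher (1.79 to 2.92 against 1.14 to 1.28).

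Most platelet and megakaryocyte markers were, like Myl9, lower in the sHA-X group than in PBS. Of 16 such markers tested, 11 fell and 0 rose (5.03% and 9.3% over all genes), with a median log2 difference of -0.50. When sHA-X replicate 2 or either of PBS replicates 1 and 3 was left out, 7 fell. Their summed level was 545 to 672 FPKM in PBS against 386 to 471 in sHA-X. Within PBS, both this sum and Myl9 were highest in replicate 3 and lowest in replicate 2. Within sHA-X the orders differed: replicate 2 had the highest Myl9 (60.7 FPKM) and the lowest platelet sum (386 FPKM). Itga2b, the platelet integrin subunit, was 23.5, 19.7 and 22.2 FPKM in PBS against 16.5, 14.3, 15.0 and 14.9 in sHA-X (log2 difference -0.49, limma adjusted p = 0.0048). Pf4, platelet factor 4, averaged 161 ± 23.2 (SD, n = 3) and 114 ± 14.7 (SD, n = 4) FPKM (log2 difference -0.50, limma adjusted p = 0.0353), and its call held only without PBS replicate 2 or sHA-X replicate 1 when single libraries were left out (highest adjusted p = 0.111). The ratio of Myl9 to Pf4 was 0.430 to 0.488 in PBS against 0.469 to 0.644 in sHA-X and overlapped. The 0.644 was that of sHA-X replicate 2, against 0.469 to 0.472 in the rest of its group. The part of platelets in the Myl9 level was not tested.

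The other filament proteins are mostly non-muscle forms found in nearly every cell. Of 16 tested, 0 rose and 1 fell (median log2 difference 0.0045), against 9.3% higher and 5.03% lower over all genes. The one that fell was Cnn3, the acidic calponin, at 65.3, 58.5 and 67.6 FPKM in PBS against 52.8, 49.6, 53.6 and 48.0 in sHA-X (log2 difference -0.32, limma adjusted p = 0.0204). Every sHA-X library was below every PBS library, but the gene no longer passed when PBS replicate 1 or either of sHA-X replicates 2 and 4 was left out (highest adjusted p = 0.0889).

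Genes of dense bodies, adhesions and cytoskeletal links gave 4 rises and 2 falls among 26 tested, with a median log2 difference of 0.17 (9.3% higher and 5.03% lower over all genes). With any 1 library left out, 3 to 7 rose, 7 without PBS replicate 3, and 0 or 1 fell. Fblim1, which links filamin to integrin adhesions, rose from 5.01 ± 0.352 (SD, n = 3) to 8.41 ± 0.310 FPKM (SD, n = 4; limma adjusted p = 0.000966). Fhl2, a LIM protein of adhesions, rose from 1.47 to 2.60 FPKM (log2 difference 0.54, limma adjusted p = 0.00728), and synemin (Synm), the partner of desmin in intermediate filaments, from 1.87 to 3.41 (0.62, adjusted p = 0.0106). These 3 held with any 1 library left out, and Synm was lost without both second libraries (adjusted p = 0.0584). Csrp1 rose from 110 to 129 FPKM (adjusted p = 0.0375), a call that held only without PBS replicate 3 among the fits lacking 1 library (highest adjusted p = 0.141). The 2 that fell were the adhesion proteins vinculin (Vcl, 27.1 to 22.2 FPKM, adjusted p = 0.0314) and integrin-linked kinase (Ilk, 75.5 to 65.8 FPKM, adjusted p = 0.0461). Vcl kept its call only without PBS replicate 3 or sHA-X replicate 2 (highest adjusted p = 0.130), and Ilk lost it without any 1 of the 7 libraries (highest adjusted p = 0.121). Both are also abundant in platelets.

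Of 32 tested genes that switch contraction on and off, 3 rose and 5 fell (median log2 difference 0.01). The 3 rises are near the 9.3% of all genes, and 5.03% of all genes fell. With any 1 library left out, 0 to 2 rose and 1 to 4 fell, and without both second libraries 0 rose and 3 fell. Falls included the nitric oxide receptor subunit Gucy1a1, from 13.5 ± 1.002 (SD, n = 3) to 10.6 ± 0.396 FPKM (SD, n = 4; limma adjusted p = 0.0150), with no overlap between groups, though not past the threshold without PBS replicate 1 (adjusted p = 0.0740). Its partner Gucy1b1 fell from 8.85 to 7.08 FPKM (adjusted p = 0.0377), held only without PBS replicate 2 or sHA-X replicate 1 (highest adjusted p = 0.141). Pde5a, which degrades the cyclic GMP they make, fell from 4.27 to 2.44 FPKM (adjusted p = 0.0188), no longer passing when sHA-X replicate 4 or either of PBS replicates 1 and 2 was left out (highest adjusted p = 0.0754), nor without both second libraries (0.0648). Mrvi1, a target of the cyclic GMP kinase, fell from 5.86 to 4.51 FPKM (adjusted p = 0.0417), held only without PBS replicate 2 (highest adjusted p = 0.161). All 4 also act in platelets, and their part was not tested here either.

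Arhgef1, an activator of RhoA that is abundant in leukocytes, fell from 76.8 to 59.2 FPKM (log2 difference -0.37, limma adjusted p = 0.00647) and held with any 1 library left out. Of the genes that rose, Gna12, a G protein subunit upstream of RhoA, went from 27.8 to 36.3 FPKM (adjusted p = 0.0264), lost without sHA-X replicate 1, 2 or 4 (highest adjusted p = 0.0663) and without both second libraries (0.107). The endothelin receptor Ednra went from 2.14 to 3.82 FPKM (adjusted p = 0.0357), held only without PBS replicate 3 or sHA-X replicate 2 (highest adjusted p = 0.102). The calcium pump Atp2a2 went from 36.8 to 43.2 FPKM (adjusted p = 0.0492), lost without any 1 library (highest adjusted p = 0.109).

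Of the transcription factors and co-factors of the contractile programme, 1 of 25 tested rose and 2 fell (9.3% and 5.03% over all genes). The median log2 difference was 0.0083, and without both second libraries 0 passed in either direction. Srf itself was at 19.6, 19.2 and 21.3 FPKM in PBS against 16.8, 18.2, 15.7 and 16.2 in sHA-X, with no overlap (log2 difference -0.24, limma adjusted p = 0.0440). That call held only without sHA-X replicate 2 among the fits lacking 1 library (highest adjusted p = 0.116). Its co-activators did not pass: Mrtfa averaged 20.9 and 20.004 FPKM (log2 difference -0.06, 95% interval -0.22 to 0.11) and Mrtfb 3.54 and 3.72 FPKM (0.05, -0.13 to 0.24). Myocd, the most muscle-restricted of them, was at 0.0897 to 0.176 FPKM and under the filter. Klf4, which opposes the programme, averaged 2.69 and 2.71 FPKM (0.01, -0.23 to 0.25), and the sign of its difference changed with the scaling. Mef2d fell from 29.4 to 24.5 FPKM (adjusted p = 0.0341; held only without sHA-X replicate 1, highest adjusted p = 0.0952), and the mesenchymal factor Prrx1 rose from 1.96 to 2.81 (adjusted p = 0.0315; held only without PBS replicate 3, highest adjusted p = 0.0895).

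TGF-beta ligands, receptors and direct targets gave 4 rises and 0 falls among 22 tested, against 9.3% higher and 5.03% lower over all genes. The median log2 difference was 0.16. With any 1 library left out 3 to 8 rose and 0 fell, and without both second libraries 2 rose. Tgfb3, a ligand, was at 2.41, 1.91 and 2.07 FPKM in PBS against 4.01, 4.15, 3.84 and 3.96 in sHA-X (log2 difference 0.68, limma adjusted p = 0.00151), and it passed with any 1 library left out. The groups did not overlap. Pmepa1, a target that feeds back on the pathway, rose from 3.02 to 4.90 FPKM (adjusted p = 0.0159; 0.0620 without both second libraries), and the matrix protein Tgfbi from 55.8 to 82.0 (adjusted p = 0.0162; 0.0712 without PBS replicate 1 and 0.0845 without both second libraries). The ligand Tgfb1 averaged 94.1 and 87.8 FPKM (-0.10, 95% interval -0.29 to 0.08), and the target Ccn2 averaged 35.9 and 43.4 (0.29, -0.27 to 0.85). Tgfb2 was under the filter at 0.371 to 0.812 FPKM.

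Matrix genes of activated myofibroblasts held the most rises of the related lists. Of 22 tested, 16 rose and 1 fell (9.3% and 5.03% over all genes), with a median log2 difference of 0.61. The higher count was 7 without PBS replicate 1, 6 without PBS replicate 2 and 9 without both second libraries. Col1a2, a chain of type I collagen, stood at 50.5, 39.3 and 47.2 FPKM in PBS against 126, 76.6, 94.8 and 78.3 in sHA-X (log2 difference 1.003, limma adjusted p = 0.0145; 0.0508 without PBS replicate 2 and 0.0513 without both second libraries). Tenascin C (Tnc), a matrix protein of wounds, stood at 0.345, 0.305 and 0.434 FPKM in PBS against 5.42, 1.72, 2.16 and 2.73 in sHA-X (1.48, adjusted p = 0.0156; 0.0708 without PBS replicate 1, 0.0578 without PBS replicate 2 and 0.0566 without both second libraries). In both, sHA-X replicate 1 was highest and the groups were far apart. Col5a2 rose from 7.68 to 14.4 FPKM, Col8a1 from 0.648 to 3.04, Aebp1, a collagen-binding protein, from 4.71 to 12.6 and Col12a1 from 1.31 to 2.75, and these 4 calls held with any 1 library left out (adjusted p at most 0.0399). The one that fell was elastin (Eln), at 30.6, 22.7 and 19.0 FPKM in PBS against 7.63, 8.69, 6.93 and 6.98 in sHA-X (log2 difference -1.53, limma adjusted p = 0.00113), a fibre protein that arterial smooth muscle also makes.

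Set against actin within each library, Col1a2 over Acta2 was 1.28, 1.14 and 1.21 in PBS against 2.92, 1.79, 2.04 and 2.02 in sHA-X. Every sHA-X library was above every PBS library, so collagen RNA was higher per unit of smooth muscle actin RNA.

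**Figure D5:**
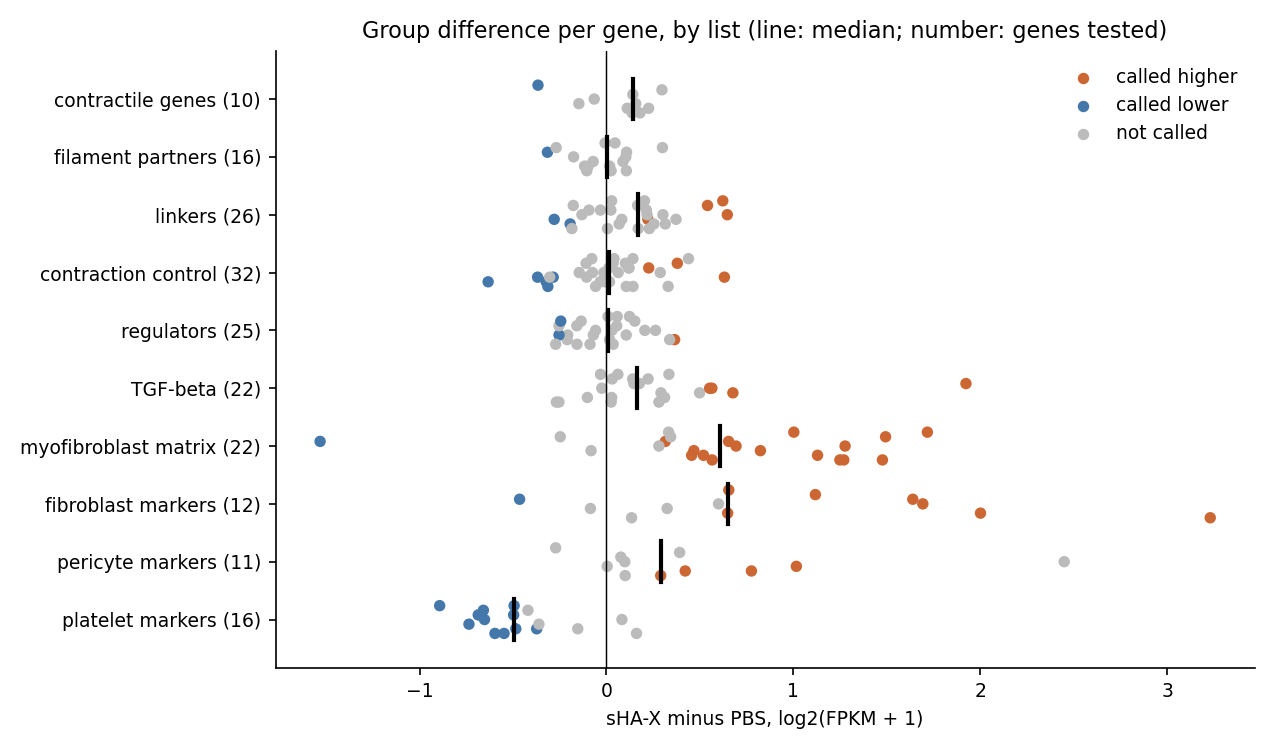
Difference in log2(FPKM + 1), sHA-X minus PBS (x axis), for each tested gene of the contractile set and of related lists (rows, number tested in brackets); black lines are list medians, orange and blue points passed the test. The contractile genes lie near 0 with a median of 0.14 and 1 blue point, the matrix genes have a median of 0.61 and 16 orange points, and the platelet markers a median of -0.50 and 11 blue points.

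Markers of neighbouring stromal cells were measured alongside, where over all genes tested 9.3% were called higher and 5.03% lower. Of 12 fibroblast markers tested, 7 rose and 1 fell, and their sum was 407 to 484 FPKM in PBS against 682 to 823 in sHA-X. Of 11 pericyte markers, 4 rose and 0 fell, with sums of 45.7 to 55.1 and 60.5 to 82.9 FPKM. The highest sums, 82.9 and 81.8 FPKM, were those of sHA-X replicates 3 and 4, the libraries with the highest hepatocyte marker sums. In sHA-X replicates 1 and 2 the sums were 65.6 and 60.5 FPKM. Of the 13 pericyte genes summed, 5 were highest in sHA-X replicate 1, 2 in replicate 2, 2 in replicate 3 and 1 in replicate 4. Another 3 were highest in PBS replicate 3, so most of these genes did not peak where the sums did. The part of hepatocyte RNA in these sums was not tested. Rgs5 rose from 2.94 ± 0.118 (SD, n = 3) to 4.28 ± 0.220 FPKM (SD, n = 4; limma adjusted p = 0.00637; 0.0527 without both second libraries). Pdgfrb, the receptor that defines pericytes and many fibroblasts, rose from 7.78 to 9.76 FPKM (adjusted p = 0.0494) but lost its call without any 1 library (highest adjusted p = 0.128). Of 17 reticular stroma markers 4 rose and 2 fell, but 1 rose and 1 fell without PBS replicate 1, 2 rose without PBS replicate 2 or both second libraries, and 1 fell without any 1 sHA-X library. Of 12 endothelial markers 1 rose and 0 fell. Their part in the matrix and contractile values was not tested.

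The genes whose pattern over the 7 libraries lay closest to the members' median profile were Lpin1 (a phosphatidate phosphatase), Acot7 (an acyl-CoA thioesterase), Lzts2, Bcl2l2, Stard9 and Tcf21 (a stromal transcription factor). Their root mean square differences from the profile were 0.0487, 0.0493, 0.0510, 0.0517, 0.0533 and 0.0562 on the log2 scale, out of 7004 candidates. They were chosen for this likeness. All 6 were lowest in PBS replicate 2 and highest in sHA-X replicate 2, and 0 of the 6 passed the limma test between groups at an adjusted or an unadjusted p under 0.05.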

How the data were processed

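RNA of 7 mouse spleen libraries was sequenced (3 PBS, 4 sHA-X, grouped by their treatment labels). Per the submitters' processing notes, the tools were fastp, HISAT2, HTSeq, R 3.2.0 and DESeq2 on build mm10, with no roles given. The deposited table, made by the authors, does not name its unit. Its values were read as FPKM because within a gene they are whole multiples of a step set by the gene, to within 0.02 of a read, in each of the 16889 genes with reads in 2 or more libraries. For genes with reads in few libraries the search finds such a step whatever the values. The pattern alone does not tell FPKM from another scaling of reads by gene and library. As the values are not raw counts, a test for raw counts was not used.

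The authors' FPKM were put on the log2(FPKM + 1) scale and fitted with limma 3.58.1 in R 4.3.3 (trend and robust variance, group only), after leaving out genes with a mean under 1 FPKM, which kept 11920. The +1 understates changes of low genes. P-values were Benjamini-Hochberg adjusted over all genes tested, with calls under 0.05. The procedure was checked on simulated data. Replicate numbers did not pair the samples (correlations of deviations 0.15, -0.214 and -0.286). No library repeated another.

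The members and lists were chosen with earlier results of these data known. Named were all members, up to 6 called genes per direction of each related list by smallest p, fixed regulators, TGF-beta genes and cell type markers, and the 6 most similar profiles. One gene that this rule names is not reported here. Alternatives were another pseudocount, filters, scalings, no robust variance, a replicate block and left-out libraries. Gene positions are from RefSeq, and strands and exon overlaps are from GENCODE M21. Of member transcript 50-mers, 0.35% of Acta2 and 0.4% of Myh11 occur in other genes.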

Additional observations from a re-analysis of the deposited data

Results flagged for a closer look

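Among the 4 sHA-X libraries, 1 value stood far from the other 3 in the following cases. By chance alone about 1 in 20 such groups would be marked. All members, named genes and list sums were examined, so some marks are expected by chance. Tpm2 was at 19.8 FPKM in sHA-X replicate 2, above the 12.7 to 13.6 of its group. In the same library Acta1 was at 39.0 FPKM, Ckm at 31.9 and the summed skeletal muscle markers at 291.3. Gna12 was low in sHA-X replicate 3, at 33.3 FPKM against 37.2 to 37.5. The summed level of the genes that control contraction and relaxation was highest in sHA-X replicate 4, at 1298 FPKM against 1259 to 1266.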

How the results depend on the processing

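Myl9 kept its direction in all 16 alternatives and its call in 14. A replicate block treats libraries with the same number as paired, and sHA-X replicate 4 has no partner in it. The block gave -0.32 for Myl9 (limma adjusted p = 0.128), the same difference as the fit without sHA-X replicate 4 (limma adjusted p = 0.0355). Under the block 0 members were lower, with 276 genes higher and 72 lower among all tested. Without both second libraries 492 genes were higher and 330 lower. With 1 library left out, members lower ranged from 0 to 1, genes higher from 488 to 1263 and genes lower from 228 to 637, the lowest counts without PBS replicate 1. The sign of the log2 difference changed without both second libraries for Actg2 (-0.0013), Tpm2 (-0.10), Lmod1 (-0.082), Klf4 (-0.13), Lpin1 (-0.019), Acot7 (-0.015), Lzts2 (-0.069) and Stard9 (-0.022). For Klf4 it also changed with upper quartile scaling (-0.019) and median ratio scaling (-0.014). Across fits lacking 1 library, Klf4 ran from -0.066 to 0.073, Lzts2 from -0.033 to 0.124 and Stard9 from -0.0044 to 0.155, each lowest without PBS replicate 2. The causes were not tested. Without both second libraries the calls of Csrp1, Vcl, Ilk, Ednra, Atp2a2, Gucy1b1, Prrx1, Mef2d, Srf and Pdgfrb were also lost (adjusted p from 0.0582 to 0.182). What read depth and library number each add to the intervals was not separated.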
